A study of Mus musculus with 10 samples.

Results

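The platelet-derived growth factor (PDGF) genes are the ligand genes Pdgfa, Pdgfb, Pdgfc and Pdgfd and the receptor genes Pdgfra and Pdgfrb, 6 genes of the 54532 in the deposited table, and were picked by name. Bulk RNA-sequencing covered 10 whole lungs of wild-type C57/BL6 mice at postnatal day 14 (P14). In the IncPBF group (5 lungs) pulmonary blood flow was raised by a needle puncture from the abdominal aorta into the inferior vena cava at P7, and in the sham group (5 lungs) the same abdominal operation was done without the puncture. All 10 mice therefore shared the anaesthesia, the laparotomy and the nursing by their mothers, and the labels give no sex. The labels do not pair mice across the groups, and each lung was counted as a separate mouse because the labels list it as a separate sample. Nothing says how the mice were spread over litters, so p-values measure only the spread between these lungs.

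PDGF ligands are secreted as dimers. PDGF-A and PDGF-C act mainly through the alpha receptor, whereas PDGF-B and PDGF-D act mainly through the beta receptor, and both receptors are tyrosine kinases. In the lung that forms alveoli, epithelial PDGF-A acts on fibroblasts and myofibroblast precursors that carry the alpha receptor and build the alveolar septa. Endothelial PDGF-B recruits pericytes and vascular smooth muscle cells that carry the beta receptor.

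Pdgfra was the 1 PDGF gene that differed between the groups by the test across all genes, and it fell to 38.6% of its sham level. Pdgfrb, Pdgfa and Pdgfb were at 93.6%, 97.7% and 93.6% of their sham means and did not pass the test. Pdgfd was at 84.4% and missed the threshold after adjustment. Pdgfc was close to the lower limit of what was tested in both groups. The comparison asked whether raised pulmonary blood flow over the week from P7 to P14 was accompanied by other RNA levels of these ligands and receptors.

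The 250 bases before the RefSeq start are shown for the receptor that fell and for the ligand next to it in size of difference, because these windows hold the proximal promoters. Each is written 5′ to 3′ on the plus strand of GRCm38.p6, with TATAAA in capitals where it occurs. Pdgfra, chr5:75152001-75152250, and Pdgfd, chr9:6168236-6168485, read:
Pdgfra: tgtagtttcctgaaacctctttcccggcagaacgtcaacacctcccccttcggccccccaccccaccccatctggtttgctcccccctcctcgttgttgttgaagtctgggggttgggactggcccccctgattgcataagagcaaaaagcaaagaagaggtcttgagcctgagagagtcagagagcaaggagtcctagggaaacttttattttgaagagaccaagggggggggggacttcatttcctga
Pdgfd: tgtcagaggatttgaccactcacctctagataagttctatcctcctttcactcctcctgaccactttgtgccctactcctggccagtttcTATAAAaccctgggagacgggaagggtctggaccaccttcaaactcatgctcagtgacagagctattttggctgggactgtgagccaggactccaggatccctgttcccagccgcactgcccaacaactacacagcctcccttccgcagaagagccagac

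The Pdgfra window held 4 CpG dinucleotides and 54.4% G and C, against medians of 6 and 52.4% over 32851 RefSeq windows of the same length, and it held on either strand neither the motif TATAAA, nor the GC box read as GGGCGG, nor the box read as CCAAT. The Pdgfd window held 3 CpG and 1 TATAAA. The motif TATAAA was found in 12.4% of all windows, while the share with a GC box was 32.7% and that with CCAAT was 33.8%. The 2 RefSeq windows of Pdgfa on the other hand held 19 and 28 CpG with 1 and 2 GC boxes, and that of Pdgfc held 3 CpG and none of these motifs. These are matches of letters and not shown binding sites.

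All 6 genes had the same position in the deposited table and in GENCODE M21 on mouse build GRCm38. Pdgfra lay on the plus strand of chromosome 5 from 75152292 to 75198215, and Pdgfa lay on the minus strand of the same chromosome from 138976014 to 138997370. Pdgfb lay on chromosome 15 (79995874 to 80014977, minus strand), Pdgfc on chromosome 3 (81036416 to 81214040, plus strand), Pdgfd on chromosome 9 (6168584 to 6378850, plus strand) and Pdgfrb on chromosome 18 (61045150 to 61085061, plus strand). The values are given per gene, so the 9 annotated transcripts of Pdgfra and the 7 of Pdgfa cannot be told apart.

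Values are FPKM, fragments on a gene scaled to its length and to the depth of the lung, so that levels of different genes can be roughly compared. Such comparisons depend on the length used, which was 10024 bases for Pdgfra, 5478 for Pdgfrb and 3119 for Pdgfa. The fragments counted on genes ran from 16103423 to 20318525 per IncPBF lung and from 18171494 to 19400575 per sham lung. Xist, an RNA made from the inactive X chromosome, was at 52.4 to 66.5 FPKM in IncPBF lungs 2 to 5, at 0.0144 in IncPBF lung 1 and at most 0.0770 in every sham lung. The groups therefore also differed in this sex-linked RNA. The paper used male or female pups, so surgery and sex cannot be fully told apart in these lungs. A fit with log2 Xist as a covariate was made for each gene tested by limma.

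**Figure D1:**
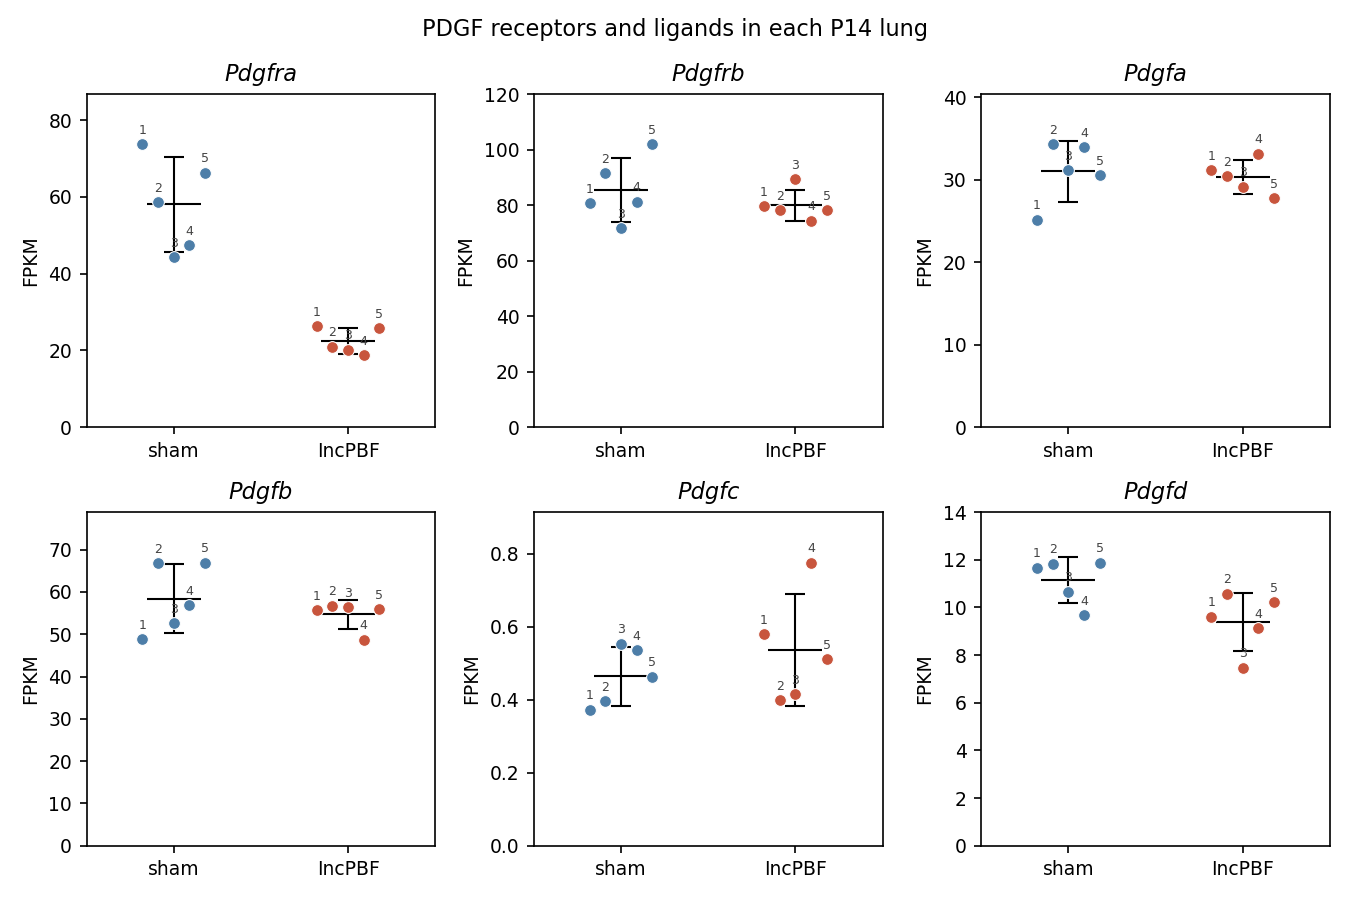
FPKM (vertical axis, from 0, with its own range in each panel) of each PDGF gene in the 5 sham and the 5 IncPBF lungs, with 1 numbered point per lung and the mean ± SD as bars. The Pdgfra points of the IncPBF lungs (18.8 to 26.3) lie below all sham points (44.3 to 73.7), and in the other 5 panels the groups overlap.

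Pdgfra encodes the alpha receptor, the receptor of PDGF-A and PDGF-C on lung fibroblasts. Its level was 26.3, 20.9, 20.2, 18.8 and 25.8 FPKM in IncPBF lungs 1 to 5, and 73.7, 58.7, 44.3, 47.4 and 66.3 FPKM in sham lungs 1 to 5. The highest IncPBF lung was thus below the lowest sham lung, and the sham lungs were the more spread out of the groups. These values rested on 3251 to 5378 fragments per IncPBF lung and 8366 to 13258 per sham lung, so counting error was small beside the spread between lungs.

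The means were 22.4 ± 3.42 FPKM with IncPBF and 58.1 ± 12.4 with sham surgery (SD, n = 5 each), a 2.59-fold lower mean. On the log2(FPKM + 0.1) scale Pdgfra fell by 1.36 (SE 0.15, 95% interval -1.68 to -1.03, limma adjusted p = 9.01e-05). In the same test 32.3% of the 15388 genes tested passed an adjusted p of 0.05, 16.2% as lower and 16.1% as higher, so passing the test was by itself common. Of all tested genes 134 (0.871%) had a lower log2 fold change than Pdgfra, and 11.2% were lower in every IncPBF lung than in every sham lung. Pdgfra was the 1 of 5 tested PDGF genes whose groups did not overlap, where 23.2% of all tested genes did not overlap in either direction. The exact two-sided permutation test gave p = 0.00794, the smallest that 5 against 5 lungs allow. With log2 Xist as a covariate the difference in Pdgfra was -1.08 (adjusted p = 0.0350). Fewer cells of a type and less RNA per cell cannot be told apart in whole lungs.

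Pdgfrb encodes the beta receptor, which is carried by pericytes and vascular smooth muscle cells. It stood at 79.7, 78.2, 89.5, 74.5 and 78.2 FPKM in IncPBF lungs 1 to 5 and at 80.8, 91.6, 71.6, 81.3 and 102 FPKM in sham lungs 1 to 5. Every IncPBF lung was inside the range of the sham lungs. The log2 fold change of Pdgfrb was -0.09 (95% interval -0.29 to 0.11, limma adjusted p = 0.497), with means of 80.0 ± 5.63 and 85.4 ± 11.6 FPKM.

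The receptors therefore stood in another proportion in each group. Pdgfra made up 21.9% ± 2.86 of the summed FPKM of both receptors with IncPBF (18.4% to 24.8%) against 40.2% ± 4.29 with sham surgery (36.8% to 47.7%). The log2 ratio of Pdgfra over Pdgfrb within a lung was lower by 1.27 in the IncPBF group, with no overlap (ratio 0.279 against 0.673, exact permutation p = 0.00794, adjusted over 9 ratios 0.0179).

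Pdgfa encodes the ligand that alveolar epithelial cells give to the alpha receptor. Its level was 31.2, 30.4, 29.2, 33.2 and 27.7 FPKM in IncPBF lungs 1 to 5 and 25.2, 34.3, 31.2, 34.0 and 30.6 FPKM in sham lungs 1 to 5. The IncPBF values lay within the sham range, and the lowest lung of all was a sham lung. Means were 30.3 ± 2.05 and 31.0 ± 3.67 FPKM, with a log2 fold change of Pdgfa of -0.03 (95% interval -0.21 to 0.16, limma adjusted p = 0.838). Its sign turned with equal totals per lung, but not with median centring or quantile normalization.

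Pdgfb encodes the ligand of the beta receptor that endothelial cells and platelets supply. It was measured at 55.7, 56.7, 56.4, 48.7 and 55.9 FPKM in IncPBF lungs 1 to 5 and at 48.9, 66.8, 52.7, 56.9 and 66.9 FPKM in sham lungs 1 to 5. The groups overlapped, and IncPBF lung 4 was the lowest of its group. Pdgfb had a log2 fold change of -0.09 (95% interval -0.29 to 0.12, limma adjusted p = 0.508), from means of 54.7 ± 3.35 and 58.4 ± 8.20 FPKM.

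Pdgfd encodes another ligand of the beta receptor, which is secreted in a latent form and cut by proteases. It was at 9.61, 10.6, 7.47, 9.13 and 10.2 FPKM in IncPBF lungs 1 to 5 and at 11.7, 11.8, 10.7, 9.67 and 11.9 FPKM in sham lungs 1 to 5. Only sham lung 4 fell among the IncPBF lungs, so the groups overlapped by that lung. The mean was 9.40 ± 1.21 FPKM against 11.1 ± 0.960, and the log2 fold change of Pdgfd was -0.25 (SE 0.10, 95% interval -0.46 to -0.04). The limma p was 0.0247 before and 0.0684 after adjustment, and without sham lung 4 the adjusted p was 0.0372. The exact permutation test on the log2 scale, which is not adjusted over genes, gave p = 0.0317. The Xist covariate gave a log2 fold change of -0.19 with a limma adjusted p of 0.575.

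Pdgfc encodes the second ligand of the alpha receptor, also secreted in latent form. It was at 0.579, 0.398, 0.415, 0.774 and 0.511 FPKM in IncPBF lungs 1 to 5 and at 0.372, 0.396, 0.553, 0.535 and 0.463 FPKM in sham lungs 1 to 5. The groups overlapped, with the highest value in an IncPBF lung and the lowest in a sham lung. These values rested on 34 to 68 fragments per lung, and the mean over all lungs was just under the minimum of 0.5 FPKM for the test across genes. The log2 difference was 0.15 (exact permutation p = 0.413). No difference was detectable at this depth.

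In every IncPBF lung the order of the levels was Pdgfrb, Pdgfb, Pdgfa, Pdgfra, Pdgfd and Pdgfc from high to low. In the sham lungs Pdgfra stood above Pdgfa, and in sham lung 1 also above Pdgfb. Pdgfb and Pdgfra were the only neighbours in that order whose ranges over the sham lungs overlapped. The change of place of Pdgfra and Pdgfa was seen in all lungs: Pdgfra was above Pdgfa in 5 of 5 sham lungs and below it in 5 of 5 IncPBF lungs.

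Ratios of a ligand to its main receptor were taken within each lung. For the alpha receptor, the log2 ratio of Pdgfa over Pdgfra was higher by 1.33 in the IncPBF group (ratio 1.36 against 0.542), and that of Pdgfc over Pdgfra by 1.51. Neither ratio overlapped between the groups (exact permutation p = 0.00794 each, adjusted 0.0179). Neither ligand gene passed a test of its own, so these ratios differed with Pdgfra as their shared denominator.

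For the beta receptor, the log2 ratio of Pdgfb over Pdgfrb differed by 0.00 (ratio 0.684 in both groups, exact permutation p = 1). That of Pdgfd over Pdgfrb differed by -0.16 (exact permutation p = 0.317, adjusted 0.408). Thus the balance of ligand to receptor RNA differed for the alpha receptor and did not pass the test for the beta receptor.

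**Figure D2:**
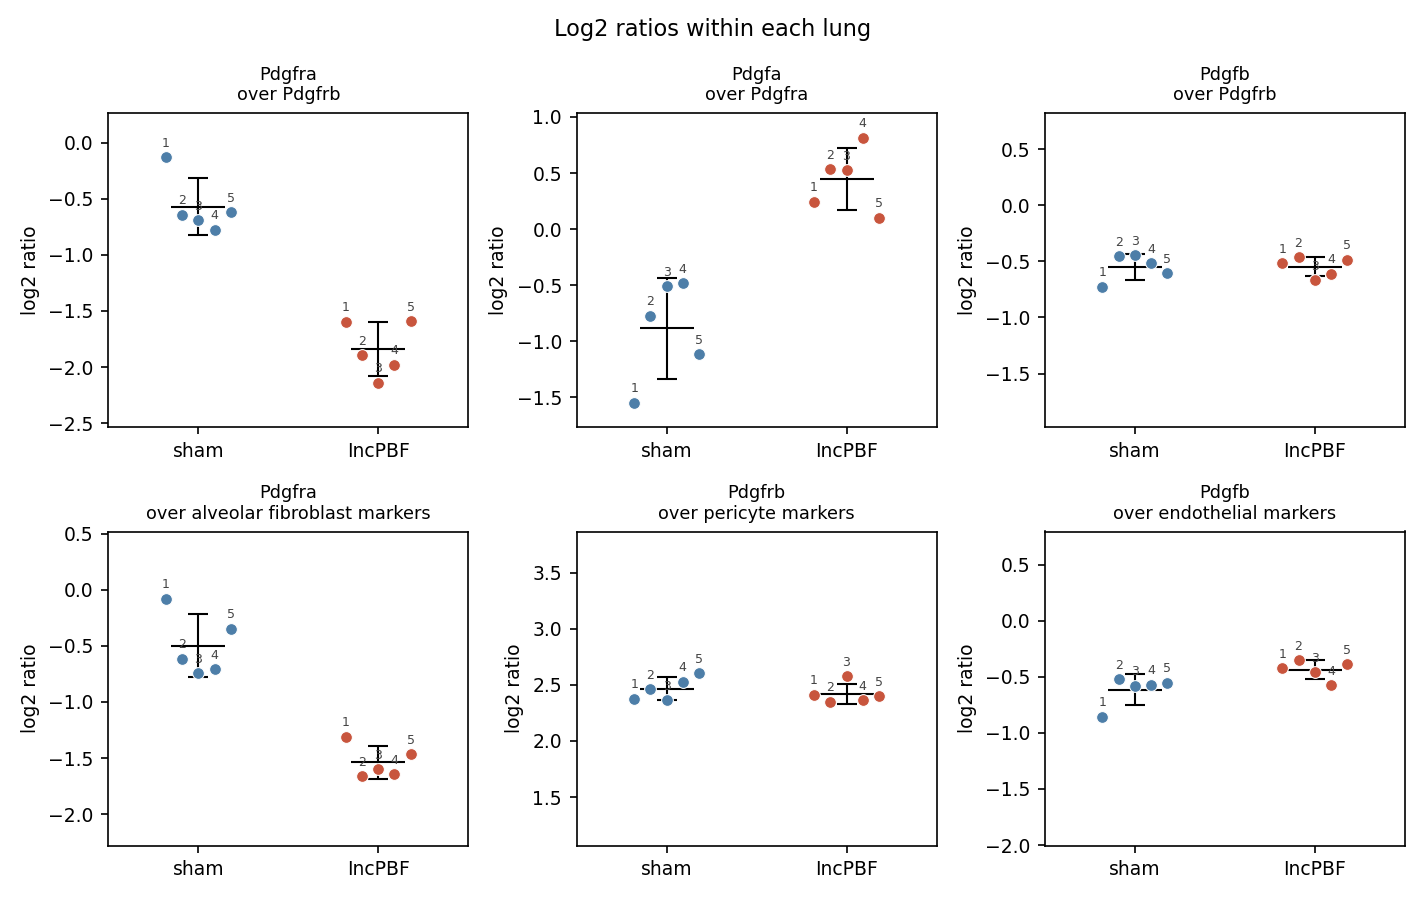
Log2 ratios (vertical axis, every panel spanning the same number of log2 units) within each of the 5 sham and 5 IncPBF lungs, with 1 numbered point per lung and the mean ± SD as bars. Pdgfra over Pdgfrb, Pdgfa over Pdgfra and Pdgfra over the alveolar fibroblast markers separate the groups, while the other 3 ratios overlap.

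The pathway around the receptors was described by 6 lists with 71 distinct genes, of which 68 were tested. Of these, 11 rose and 15 fell in the IncPBF lungs, with a median log2 fold change of -0.05 against 0.01 over all genes tested. Over all genes tested 16.1% rose and 16.2% fell.

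Among 6 proteases that cut PDGF precursors or activate latent ligands, 1 rose and 2 fell. Plat, tissue plasminogen activator and an activator of PDGF-C, rose from 14.1 ± 1.86 to 19.3 ± 2.28 FPKM (log2 fold change 0.45, limma adjusted p = 0.00880). Furin, a convertase of PDGF-A and PDGF-B, fell by 0.29 on the log2 scale (adjusted p = 0.0287). St14, matriptase, fell by 0.19 (adjusted p = 0.0426). The lower calls of this list became 0 without IncPBF lung 1, 2 or 4 or sham lung 2, and 1 without sham lung 1, 4 or 5. Plau, urokinase and an activator of PDGF-D, stood at 2.36 ± 0.292 against 2.04 ± 0.444 FPKM and did not pass (adjusted p = 0.291), nor did the convertases Pcsk5 and Pcsk6 (adjusted p = 0.113 and 0.718).

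Of 4 co-receptors and binding proteins, 1 rose and 2 fell. Pdgfrl, a gene for a PDGF receptor-like protein without a kinase, rose from 4.68 ± 1.39 FPKM in the sham lungs to 10.2 ± 0.513 in the IncPBF lungs. The log2 fold change of Pdgfrl was 1.16 (SE 0.19, limma adjusted p = 0.00100), and the groups did not overlap. With the Xist covariate the adjusted p of Pdgfrl was 0.0811 at the same log2 fold change of 1.16. Lrp1, an endocytic receptor that acts with Pdgfrb, fell by 0.53 on the log2 scale (adjusted p = 0.00881), and the co-receptor Nrp1 fell by 0.48 (adjusted p = 0.0122). Sparc, which binds PDGF-B, was at 1212 ± 43.1 against 1338 ± 132 FPKM and did not pass (adjusted p = 0.269).

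Of 22 adaptors and enzymes that bind the activated receptors, 1 rose and 6 fell. Pik3r1, the regulatory subunit of phosphoinositide 3-kinase, fell by 0.68 on the log2 scale (limma adjusted p = 0.00189), Stat5b by 0.46 (adjusted p = 0.00219) and the kinase subunit Pik3cb by 0.47 (adjusted p = 0.00612). The adaptor Shc1 rose by 0.17 (adjusted p = 0.0170). Of the genes of the RAS and MAPK steps, 0 rose by limma, at an unadjusted p of 0.05 or by limma-voom on the recovered fragments. The kinase gene Braf fell by 0.21 on the log2 scale (limma adjusted p = 0.0301), a call that was lost without IncPBF lung 1, 3, 4 or 5 or sham lung 1 or 5.

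Negative regulators of receptor tyrosine kinases gave 5 higher and 2 lower of 14. Spry1 and Spry4, inhibitors that growth factor signals induce, rose by 0.52 and 0.66 on the log2 scale (limma adjusted p = 0.00137 and 0.00192). Dusp6, the phosphatase of ERK, rose by 0.56 (adjusted p = 0.00174). The ubiquitin ligase Cblb and the phosphatase Ptprj fell by 0.35 and 0.31 (adjusted p = 0.00294 and 0.0346), and the call of Ptprj was lost without IncPBF lung 2, 3 or 4 or sham lung 1 or 5. These regulators act on many receptors and are not particular to PDGF.

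Of 12 genes that PDGF is known to induce early in fibroblasts, 9 were tested, 3 rose and 1 fell. Odc1, of polyamine synthesis, rose by 0.67 on the log2 scale (limma adjusted p = 0.000811), Myc by 0.61 (adjusted p = 0.00104) and Ier2 by 0.44 (adjusted p = 0.0350, lost without IncPBF lung 2, 3 or 4 or sham lung 1, 4 or 5). Fosl1 fell by 0.43 (adjusted p = 0.0138). Fosb, Ccl2 and Cxcl1 were under the minimum level and were not tested.

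**Figure D3:**
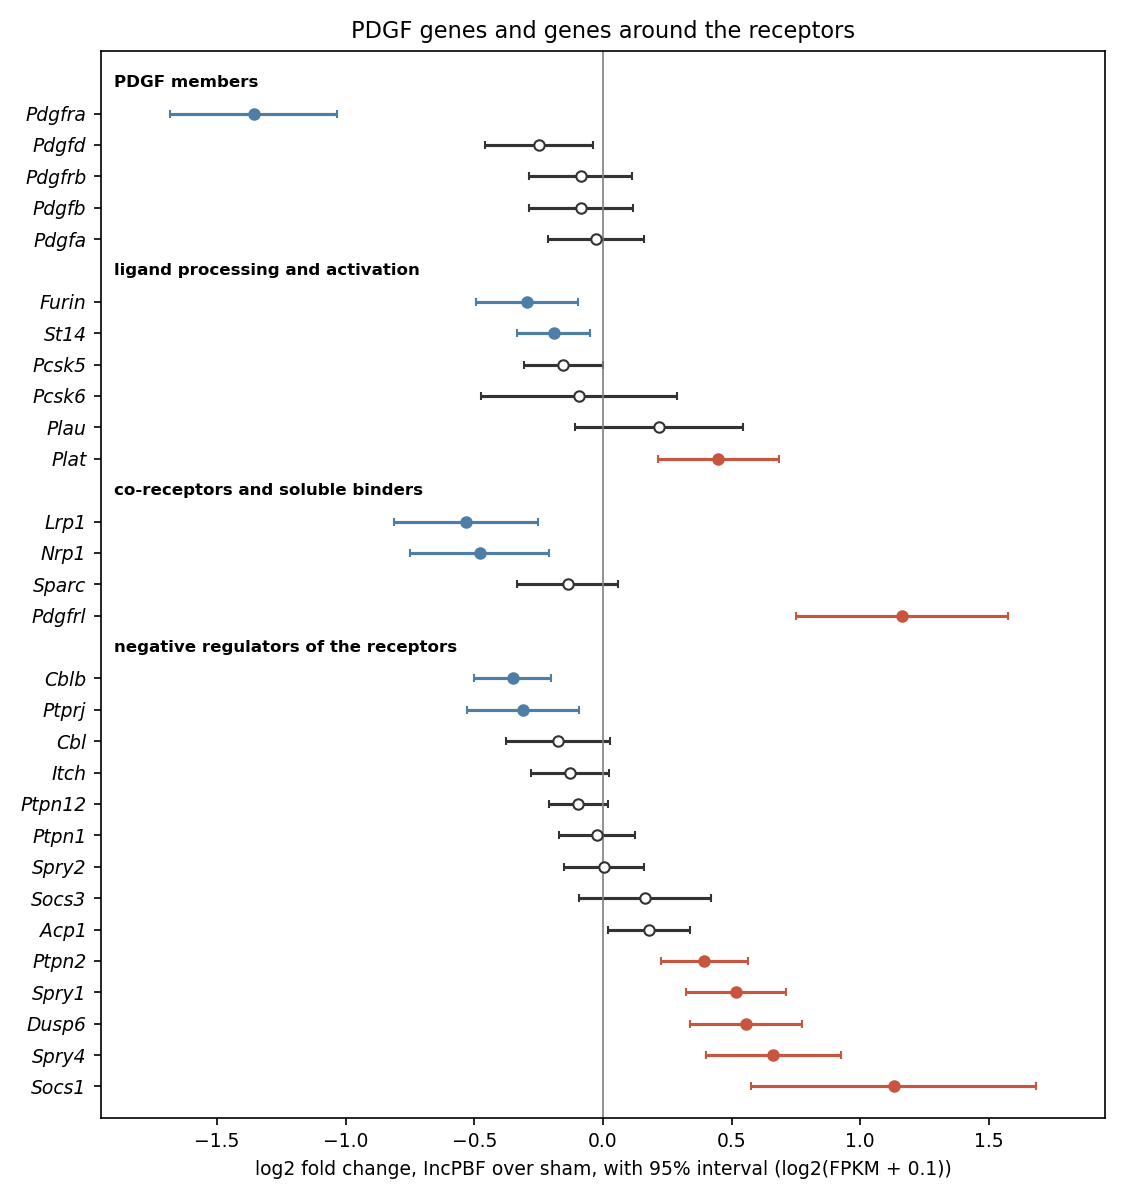
Log2 fold change, IncPBF over sham, with its 95% interval (horizontal axis) for the 5 tested PDGF genes, the ligand-processing proteases, the co-receptors and binders, and the negative regulators. Filled points passed an adjusted p of 0.05, red for higher and blue for lower, and open points did not; Pdgfra is the lowest point and Pdgfrl the highest.

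Marker lists of the cells that carry or supply PDGF were read beside these values. Alveolar fibroblasts are the most abundant Pdgfra-bearing cells of the lung. Of their 14 markers other than Pdgfra, 2 rose and 5 fell, with a median log2 fold change of -0.16, and the summed level was 3108 to 3408 FPKM with IncPBF against 3639 to 4702 FPKM with sham surgery. Inmt, a methyltransferase, fell by 2.99 on the log2 scale (limma adjusted p = 1.76e-05), Limch1 by 0.67 (adjusted p = 0.000476) and the integrin Itga8 by 0.67 (adjusted p = 0.00181). Inmt went from 502 ± 122 FPKM with sham surgery to 64.8 ± 23.2 with IncPBF, a large part of the difference between the sums. Tcf21, the transcription factor that marks the lineage, was at 107 ± 5.03 against 109 ± 10.1 FPKM and did not pass (adjusted p = 0.799). Wnt2 and Gyg rose by 0.71 and 0.75 (adjusted p = 0.000149 and 0.000523). With the Xist covariate 1 marker was higher (Wnt2) and 1 lower (Inmt).

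Relative to this list Pdgfra was lower too. The log2 ratio of Pdgfra over the mean of the alveolar fibroblast markers was lower by 1.04 in the IncPBF group (ratio 0.345 against 0.708, exact permutation p = 0.00794, adjusted 0.0179), with no overlap. The median of the list had the same sign as Pdgfra and was smaller in size.

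Myofibroblasts of the alveolar ducts arise in part from Pdgfra-bearing precursors. Of their 14 markers 10 rose and 1 fell, with a median of 0.90, and their sum was 785 to 1155 FPKM in the IncPBF lungs against 341 to 616 in the sham lungs. Stc1 rose by 1.14 on the log2 scale (limma adjusted p = 1.76e-05), the growth factor Fgf18 by 1.22 (adjusted p = 5.74e-05) and Wnt5a by 1.27 (adjusted p = 9.11e-05). Acta2, smooth muscle actin, rose from 108 ± 36.0 to 313 ± 76.6 FPKM (adjusted p = 0.000783), whereas Hhip fell by 0.29 (adjusted p = 0.0397), a call that was lost without IncPBF lung 2, 3 or 4 or sham lung 1, 2, 4 or 5. Pdgfra fell in the same lungs in which 10 of these markers rose. With the Xist covariate 5 of the 14 were higher and 0 lower.

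Pericytes carry Pdgfrb. Of their 14 markers other than Pdgfrb, 3 rose and 3 fell, with a median of -0.03, and the summed level was 443 to 473 FPKM in the IncPBF lungs against 383 to 471 in the sham lungs. Pde5a and Rgs5 rose by 0.53 and 0.68 on the log2 scale (limma adjusted p = 7.35e-05 and 0.000202), Kcnj8 rose by 0.41 (adjusted p = 0.00169), and Lamc3 fell by 1.22 (adjusted p = 0.00101). Of the lower calls only that of Lamc3 was left without IncPBF lung 4 or with equal totals per lung, since those of Trpc6 and Notch3 were lost. With the Xist covariate 1 marker was higher (Pde5a) and 0 were lower. Cspg4, the NG2 proteoglycan, was at 4.78 ± 0.424 against 5.35 ± 0.546 FPKM and did not pass (adjusted p = 0.169). The ratio of Pdgfrb over the mean of these markers differed by -0.05 on the log2 scale (exact permutation p = 0.452), and that of Pdgfra over the same markers, a ratio added after the data were seen, by -1.32 (exact permutation p = 0.00794).

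Of 12 vascular smooth muscle markers, which share Acta2, Myh11, Tagln and Rgs5 with the lists above, 8 rose and 0 fell by limma, with a median of 0.62 and sums of 398 to 661 against 201 to 322 FPKM. The count of lower genes was 0 also at an unadjusted p of 0.05 and by limma-voom. Des, desmin, rose by 0.74 on the log2 scale (adjusted p = 0.00149). Cnn1 was at 12.6 ± 6.92 against 7.03 ± 4.49 FPKM and did not pass. With log2 Xist as a covariate 0 of the 12 passed by limma. The log2 fold changes of Des (0.38) and Myh11 (0.39 after 0.73) were lower, but not those of every marker of the list. Of 10 adventitial fibroblast markers, 4 rose and 1 fell (sums 650 to 754 against 569 to 690 FPKM), with Dpt higher by 0.48 and Ly6a lower by 0.64 on the log2 scale (limma adjusted p = 0.00109 and 0.00606). Without sham lung 1 the adventitial markers that fell were 2, and with the Xist covariate 0 of them passed.

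Endothelial cells are the main source of Pdgfb. Of 14 endothelial markers 1 (Egfl7) rose, a call lost without IncPBF lung 1, 3 or 4 or sham lung 1 or 4, and 9 fell, with a median of -0.27, and their sum was 1458 to 1588 FPKM with IncPBF against 1577 to 1969 FPKM with sham surgery. The phosphatase gene Ptprb fell by 0.83 on the log2 scale (limma adjusted p = 0.000175), the receptor Tek by 0.47 (adjusted p = 0.00223) and Pecam1 by 0.37 (adjusted p = 0.00405). With the Xist covariate 1 marker fell (Ptprb) and 0 rose. The log2 ratio of Pdgfb over these markers was higher by 0.18 in the IncPBF lungs (exact permutation p = 0.0317, adjusted over the ratios 0.0571), and the groups overlapped. Platelets also hold PDGF-B, and of their 7 tested markers 0 passed the limma test in either direction, as was the case at an unadjusted p of 0.05 and by limma-voom (median -0.01, sums 19.6 to 31.7 against 17.7 to 47.6 FPKM). Pf4, platelet factor 4, was at 11.7 ± 2.01 against 11.9 ± 2.89 FPKM.

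Epithelial cells supply Pdgfa. Of 12 markers of alveolar type 1 cells (AT1) 0 rose and 9 fell by limma, with a median of -0.36 and sums of 1500 to 1608 against 1787 to 2371 FPKM. Of 12 markers of alveolar type 2 cells (AT2) 0 rose and 6 fell, with a median of -0.32 and sums of 11873 to 14616 against 14501 to 17938 FPKM. In both lists 0 rose also at an unadjusted p of 0.05 and by limma-voom, and 0 passed in either direction with the Xist covariate. Sftpc, the AT2 surfactant gene and a check of the labelled tissue, was at 9583 to 14074 FPKM over all lungs. It made up most of the AT2 sums and did not pass (log2 fold change -0.21, limma adjusted p = 0.358). Its means were 10428 ± 949 FPKM with IncPBF and 12095 ± 1237 with sham surgery. Ager fell by 0.54 and Sftpb by 0.64 on the log2 scale (limma adjusted p = 0.00157 and 0.000284). Pdgfa over the AT1 markers differed by 0.33 on the log2 scale and did not pass (exact permutation p = 0.0556, adjusted 0.0833). The part of the marker levels in the values of any PDGF gene was not tested.

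**Figure D4:**
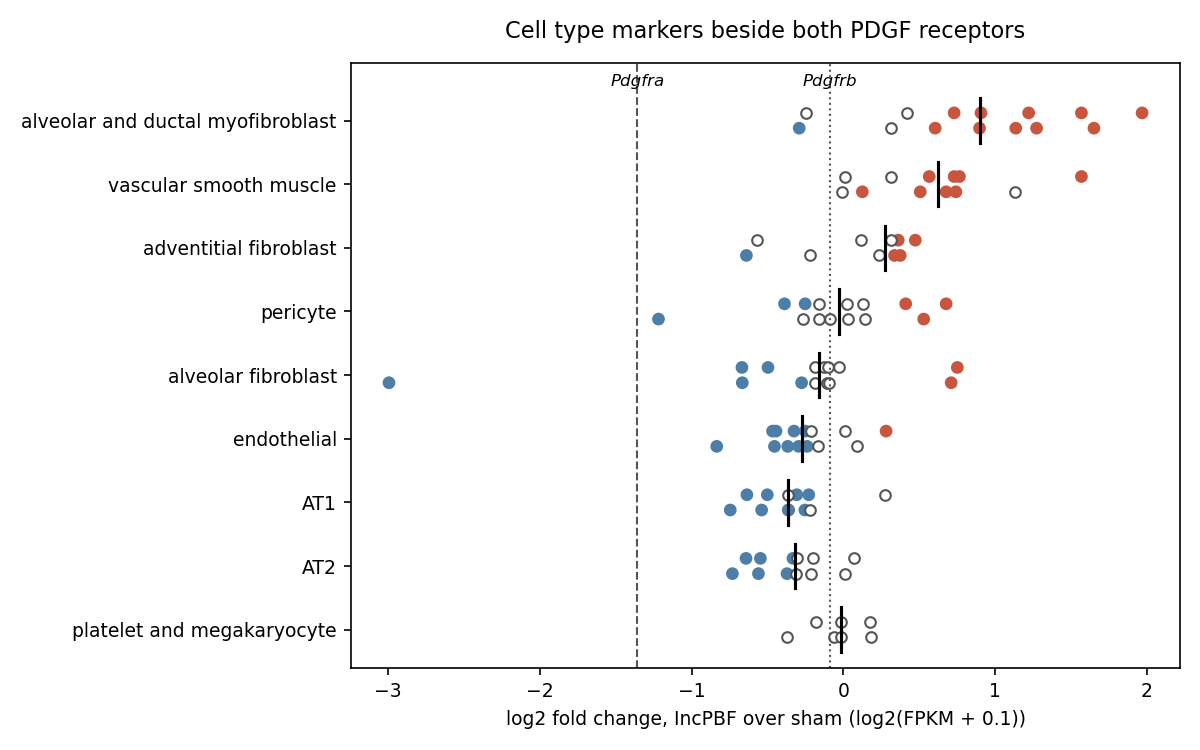
Log2 fold change, IncPBF over sham (horizontal axis), of each tested marker of 9 cell types, with filled points past an adjusted p of 0.05 (red higher, blue lower), open points not past it and a black bar at each list's median. The dashed line at -1.36 is Pdgfra and the dotted line at -0.09 is Pdgfrb; Pdgfra lies beyond the median of each list shown.

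Markers of other cells that a lung sample can hold were counted as well. Of 6 erythroid markers 4 fell (median -1.50, sums 252.2 to 1929 against 1463 to 2447 FPKM), among them Slc4a1 by 1.09 on the log2 scale (limma adjusted p = 0.00227), and 2 were left without IncPBF lung 1. All 5 tested mesothelial markers fell (median -0.90, sums 68.8 to 91.9 against 94.9 to 158 FPKM), with Msln lower by 0.88 (adjusted p = 0.0125). Of 10 macrophage markers 1 fell, C1qb, which was lost without IncPBF lung 2, 3 or 4 or sham lung 2, 4 or 5 (sums 98.8 to 420 against 127 to 391 FPKM). None of the 9 lymphocyte (21.5 to 31.0 against 24.9 to 29.7 FPKM), 6 airway epithelial (5127 to 10782 against 245 to 12678), 5 cardiac (32.4 to 98.0 against 7.53 to 46.2) and 2 skeletal muscle markers tested (0.353 to 8.84 against 0.434 to 0.829) passed by limma. At an unadjusted p of 0.05 these counts were 2 lower lymphocyte, 1 lower airway, 0 cardiac and 1 higher skeletal muscle markers, and limma-voom called 1 lower lymphocyte marker. Sham lung 5 was the lung with 245 FPKM of airway markers, and its Pdgfra level was 66.3 FPKM, within the range of the other sham lungs.

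Genes whose level followed a PDGF gene from lung to lung were found by the correlation of deviations from the group means over the 10 lungs, among 13533 genes. They are given as a description, since the highest of so many values is high by selection and the lungs share their scaling. For Pdgfra these were Icmt (r = 0.987), Tfdp2 (0.981) and Yy1 (0.978), and for Pdgfrb Lrp10 (0.969), Src (0.966) and Gemin5 (0.965). For the ligands the highest were Mrpl42 with Pdgfa (0.972), Cd151 with Pdgfb (0.961) and Fam198b with Pdgfd (0.949). Tfdp2 fell by 0.62 on the log2 scale (limma adjusted p = 0.000973) and Yy1 by 0.27 (adjusted p = 0.00881), while Icmt did not pass (adjusted p = 0.0609).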

How the data were processed

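Total RNA of 10 P14 lungs was isolated with Trizol (labels) or a column kit (methods) and sequenced on a NovaSeq instrument from NEBNext libraries. The submitters' processing notes name Bowtie 0.12.2 and the builds GRCm38, mm10 and hg38. How strand was treated, the counting tool and the annotation release are not given in the sources used here. The authors deposited FPKM per gene with gene length and position. The column names of the IncPBF lungs differ from the titles in their abbreviation and give only the group, so their numbers are names only. The authors' FPKM times gene length came out as whole multiples of a step set by each lung in 100% of values, which gave the fragments per gene. Replicates of a group were not the same library deposited again: the closest pair differed by a chi-square of 6.40 per gene.

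The 15388 genes whose FPKM averaged 0.5 or more entered limma 3.58.1 (R 4.3.3; lmFit and eBayes with trend) as log2(FPKM + 0.1), with all 10 lungs and no covariate, with Benjamini-Hochberg adjustment over all tested genes and a threshold of 0.05. A fold change on this scale understates that of low genes. Single values and ratios were compared by exact two-sided permutation over all assignments of the lungs. Ratios to a marker list use the mean log2 value of the list. The script was tested on simulated data. The PDGF genes and all gene lists were chosen with earlier results of these data known. The 6 PDGF genes, every ligand-processing and co-receptor gene, up to 3 called genes per direction with the smallest adjusted p of every other list, the first 2 genes of each cell type list, and the genes most like each PDGF gene could be named. Promoter windows are from RefSeq (GRCm38.p6), which matched Pdgfa, Pdgfc, Pdgfd and Pdgfra by symbol, and sequence of chromosome 18 is not shown. Alternatives were other pseudocounts, no filter, equal totals per lung, limma-voom on the recovered fragments, eBayes without trend, a replicate block, a Xist covariate and leaving out each lung. Python 3.11.15 and matplotlib 3.10.9 were used for tables and plots.

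Samples with the same replicate number did not deviate together (correlations -0.0675 to 0.0854). A result for 1 gene of the pathway lists is not reported here.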

Additional observations from a re-analysis of the deposited data

Results flagged for a closer look

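In groups of 5 lungs, a lung whose gap to the nearest other lung takes up most of the group's range was marked, which chance gives in about 1 of 20 groups, and 7 of 52 groups were marked. Pdgfb was 48.7 FPKM in IncPBF lung 4 and 55.7 to 56.7 in the other 4. The convertase Pcsk6 was 2.83 FPKM in IncPBF lung 3 and 4.42 to 5.01 in the others. The log2 ratio of Pdgfc over Pdgfra was -4.43 in IncPBF lung 4 and -5.41 to -5.28 in the others, from 34 to 68 Pdgfc fragments per lung. That of Pdgfd over Pdgfrb was -3.57 in IncPBF lung 3 and -3.04 to -2.88 in the others, and Pdgfrb over the pericyte markers was 2.58 there against 2.35 to 2.41. In sham lung 1, Pdgfra over Pdgfrb was -0.13 on the log2 scale against -0.78 to -0.62 in the other sham lungs, and Pdgfb over the endothelial markers was -0.86 against -0.58 to -0.52. Without sham lung 1 the log2 ratio of Pdgfra over Pdgfrb still differed by -1.16 (exact permutation p = 0.0159, the smallest that 4 against 5 lungs allow).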

How the results depend on the processing

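The fall of Pdgfra kept its direction and passed under all 22 alternatives run (log2 fold change -1.45 to -1.08, adjusted p 9.31e-06 to 0.0350, the highest with the Xist covariate), and between -1.45 and -1.26 when each lung was left out. Pdgfrb and Pdgfb did not pass under any of 22, nor did Pdgfc under any of 16. With the replicate block, which rests on numbers that do not pair the lungs (lungs 2 and 5 of 5 correlated best with their own number), Pdgfd was -0.25 with an adjusted p of 0.0327, and the block changed no call of another PDGF gene. The exact permutation on unlogged FPKM gave a log2 ratio of means of -0.25 (p = 0.0317) for Pdgfd, and leaving out lungs gave -0.30 to -0.17 (adjusted p 0.0372 to 0.136). Pdgfa turned sign, always far from the threshold, to 0.0070 with equal totals and 0.0084 with the Xist covariate, and ranged from -0.100 to 0.011 when lungs were left out. The log2 ratio of Pdgfb over Pdgfrb ranged from -0.043 to 0.031 and that of Pdgfa over AT1 markers from 0.24 to 0.40 (exact p 0.0317 to 0.111) when lungs were left out. Pdgfb over endothelial markers ranged from 0.12 to 0.21 (exact p 0.0159 to 0.0635), and with the list's median was 0.22 (exact p = 0.0952). Pdgfrb over the median of the pericyte list was -0.27 (exact p = 0.0159), against -0.05 with the mean. The other ratios kept side and direction. Genes called were 4970, 3125 with no filter, 741 with the Xist covariate and 3869 to 5234 when lungs were left out. Counts over the lists leave out the related receptor tyrosine kinases, a list added after the data were seen. Calls over the other lists were 95, 49 with no filter, 11 with the Xist covariate and 73 to 105. The cause of these changes was not tested. With the Xist covariate none of the genes of the 6 pathway lists that are named here passed, the lowest adjusted p being 0.0504 (Myc). IncPBF lung 1 is the single IncPBF lung at the sham level of Xist, so the covariate and the group largely coincide. Depth limits Pdgfc (34 to 68 fragments), and intervals over fragments cover counting error only.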

Other observations

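Pdgfra lies in a cluster of receptor tyrosine kinase genes on chromosome 5, and its nearest tested protein-coding neighbours are Chic2 and Kit. Kit, the stem cell factor receptor, fell from 36.2 ± 3.27 to 24.6 ± 1.37 FPKM (log2 fold change -0.55, SE 0.07, limma adjusted p = 0.000188), with no overlap, and remained past the threshold with the Xist covariate (-0.49, adjusted p = 0.0471). Kdr, the receptor of vascular endothelial growth factor on the far side of Kit, was at 50.5 ± 3.45 against 57.6 ± 10.8 FPKM and did not pass (adjusted p = 0.311). On the other side Chic2 was at 5.68 ± 0.297 against 6.31 ± 0.200 FPKM (adjusted p = 0.0515) and Fip1l1 at 5.02 ± 0.190 against 4.89 ± 0.104 (adjusted p = 0.615). Rasl11b, the farthest tested neighbour before Pdgfra, rose by 0.43 on the log2 scale (adjusted p = 0.00570). Of the 9 tested neighbours within 1 Mb only Kit fell, and 2 rose, where 16.2% of all tested genes fell and 16.1% rose. The other that rose was Tmem165 (0.16, limma adjusted p = 0.0373), whose groups overlapped.

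Kit, Csf1r, Flt1, Kdr and Flt4 are the tested members of the receptor families nearest to the PDGF receptors, a list added after the data were seen. In it 3 of 5 fell, where 16.2% of all tested genes and 64.3% of the endothelial markers fell. Kdr is also in the endothelial list. Flt1 was lower by 0.46 and Flt4 by 0.56 on the log2 scale (limma adjusted p = 0.00129 and 0.00553). Neither Flt1 nor Flt4 passed with the Xist covariate (limma adjusted p = 0.143 and 0.221). Csf1r, the macrophage receptor, was at 17.4 ± 2.53 against 20.5 ± 2.68 FPKM and did not pass (adjusted p = 0.124). Flt3 was under the minimum level. None of the 5 reached the log2 fold change of Pdgfra.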
